A study of Mus musculus with 38 samples.

Results

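The genes described here are those of the mouse major histocompatibility complex (MHC) and of antigen presentation, measured in brown adipose tissue. They were the gene names on the array that begin with H2-, the prefix of the mouse MHC, together with B2m, Tap1, Tap2, Tapbp, Psmb8, Psmb9, Psmb10, Cd74, Ciita and Nlrc5. This gave 51 of the 29411 gene names on the array. Of these, 37 belong to class I, 12 to class II, and H2-Ke2 and H2-Ke6 share only the prefix. Tests were run on the 39 that were well above background on at least 6 arrays, among 21624 genes tested in all. The 12 untested genes were 11 non-classical class I heavy chains and H2-Eb2.

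The 38 arrays came from mice of strain C57BL/6J, weaned at 3 to 4 weeks of age and then divided among 5 diets. LFC mice (10 arrays) ate a low fat diet with 10% of its calories from fat, and HFC mice (10 arrays) ate a diet rich in sucrose with 60% of its calories from fat. HF5, HF20 and HF75 mice (6 arrays each) ate the HFC diet with 5, 20 or 75 µg of KAL-1, an ethano-botanical formulation. Tissue was taken at Day 6, Day 10, Day 14 and Week 0 for LFC and HFC, and at Week 3, 6, 9, 12, 15 and 18 for all groups, with 1 array per group and time point. The time points of a group therefore served as its replicates, and the labels do not say how many animals' RNA an array holds.

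Class I molecules sit on nearly all nucleated cells and show them peptides cut in the cytosol. A heavy chain pairs with the light chain beta-2 microglobulin (B2m), the immunoproteasome subunits Psmb8, Psmb9 and Psmb10 help to cut the peptides, Tap1 and Tap2 carry them into the endoplasmic reticulum, and tapasin (Tapbp) helps to load them. Class II molecules, pairs of an alpha and a beta chain, are made mainly by B cells, dendritic cells and macrophages, where the invariant chain Cd74 guards the groove, H2-DM exchanges its peptide and H2-DO restrains H2-DM. Nlrc5 and Ciita are the transactivators of the class I and class II genes. In adipose tissue, class II genes are known above all as marks of resident macrophages and other antigen-presenting cells.

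The promoters of both classes carry short conserved elements, and 5 of them are shown here because the comparisons below turn on their genes. Each is the 150 bases before the RefSeq transcription start in GRCm38.p6, written 5′ to 3′ on the gene's own strand. Capitals mark matches to the Y box core GATTGG on either strand (CCAATC when reversed), to the X box core of class II promoters, to the kappa B core of class I promoters, and to the core of the interferon-stimulated element. Of 2 starts listed for H2-K1, the one with the lowest coordinate is shown.
H2-Aa promoter, chr17:34287824-34287973 (- strand): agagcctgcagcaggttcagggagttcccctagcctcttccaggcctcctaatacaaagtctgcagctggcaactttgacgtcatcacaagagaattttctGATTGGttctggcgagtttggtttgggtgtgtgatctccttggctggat
H2-Eb1 promoter, chr17:34305717-34305866 (+ strand): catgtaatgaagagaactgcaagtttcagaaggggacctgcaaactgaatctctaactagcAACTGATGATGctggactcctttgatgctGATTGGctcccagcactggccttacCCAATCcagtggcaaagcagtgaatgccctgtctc
H2-DMb1 promoter, chr17:34153041-34153190 (+ strand): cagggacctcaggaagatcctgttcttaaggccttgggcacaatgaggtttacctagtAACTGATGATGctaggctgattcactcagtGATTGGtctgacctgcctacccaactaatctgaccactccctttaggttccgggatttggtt
H2-K1 promoter, chr17:34000334-34000483 (- strand): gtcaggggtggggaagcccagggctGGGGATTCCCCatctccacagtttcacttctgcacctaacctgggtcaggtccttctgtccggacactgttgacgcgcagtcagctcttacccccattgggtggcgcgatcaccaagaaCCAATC
B2m promoter, chr2:122147537-122147686 (+ strand): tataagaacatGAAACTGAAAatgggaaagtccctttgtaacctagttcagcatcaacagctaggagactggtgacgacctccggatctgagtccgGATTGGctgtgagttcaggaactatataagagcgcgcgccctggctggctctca

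Of the 51 genes, 35 had a promoter in the RefSeq table, 26 of class I and 8 of class II. The Y box core was found in 16 of the 26 class I and in 7 of the 8 class II promoters, against 10.9% of all 32851 promoters in a window of the same length. The X box core was found in 4 of the 8 class II promoters, those of H2-DMb1, H2-DMb2, H2-Eb1 and H2-Ob, in 0 of the 26 class I promoters and in 0.0791% of all promoters. The kappa B core was found in the H2-K1 promoter alone among these genes, against 0.0213% of all promoters. The interferon element was found in B2m and H2-T23, against 1.59% of all promoters. A match describes the letters in this window and does not show that a factor binds there.

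The arrays differed in brightness, and this touches every result on class I. Across arrays, the 75th percentile of signal spanned 35.1 to 1209 units of intensity. The 11 arrays above 600 units are called bright, and the other 27, at up to 430 units, dim. LFC had 4 bright arrays (Week 0, 3, 9 and 12), HFC 2 (Day 10 and Week 3), HF20 4 (Week 3, 6, 12 and 15), HF75 1 (Week 3) and HF5 0. Values here are log2 signal minus the array's own 75th percentile, so that 0 is a gene at that percentile. The mean of 8 brown adipocyte markers lay between 0.72 and 3.97 on 37 arrays and at -3.43 on the HF75 array of Week 3, so that this array stands apart from its tissue label. The mean of 5 skeletal muscle markers ranged from -6.02 to 5.96 over the arrays. B cell markers were low in this tissue, and Pax5 and Blk were well above background on 1 and 4 arrays.

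The classical class I heavy chains, H2-K1 and H2-D1, were well above background on all 38 arrays. H2-K1 ranged from 5.34 through a median of 7.73 to 8.49 in LFC, from 6.12 through 7.25 to 8.17 in HFC, from 7.60 through 7.81 to 8.48 in HF5, from 5.84 through 6.38 to 7.75 in HF20, and from 6.29 through 8.07 to 8.69 in HF75. All groups overlapped, and HF20 held the lowest median. H2-D1 had means of 6.44 ± 1.2 in LFC and 6.67 ± 0.80 in HFC (SD, n = 10), and of 6.85 ± 0.35 in HF5, 6.20 ± 0.89 in HF20 and 6.53 ± 0.48 in HF75 (SD, n = 6). The HF5 arrays, none of them bright, lay closest together in both genes.

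B2m, the class I light chain, had means of 6.05 ± 0.77 in LFC, 6.34 ± 0.53 in HFC, 6.01 ± 0.87 in HF5, 6.18 ± 0.30 in HF20 and 6.45 ± 0.33 in HF75. Its groups overlapped throughout. Tap1, a subunit of the peptide transporter, lay at 3.69 ± 1.04, 3.72 ± 0.90, 3.86 ± 0.33, 3.65 ± 1.27 and 4.16 ± 0.69 in the same order. The immunoproteasome subunit Psmb8 lay at 4.16 ± 1.07, 4.20 ± 0.68, 4.34 ± 0.23, 4.22 ± 1.32 and 4.33 ± 0.32. Differences between these group means were smaller than the SD within most groups. Nlrc5, the class I transactivator, was dim, at means from -4.01 to -3.24, and was well above background on 24 arrays.

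**Figure D1:**
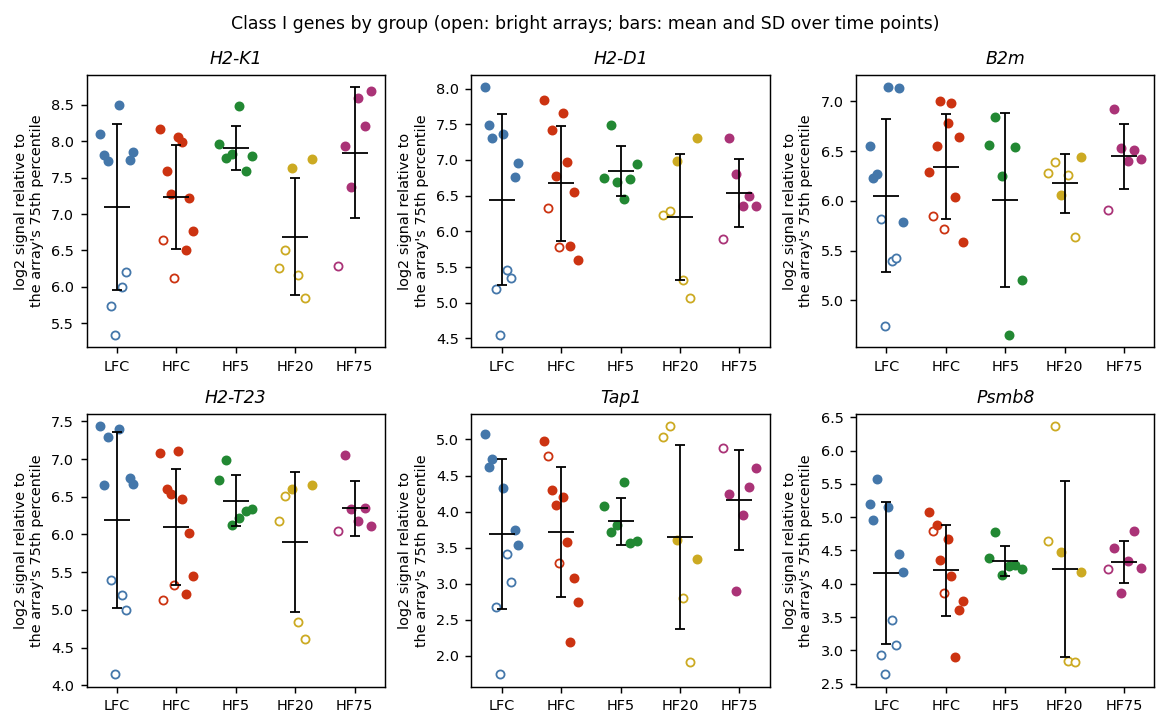
Each panel plots a class I gene as log2 signal relative to the array's 75th percentile, with 1 point per array (open points are bright arrays) and bars for the mean and SD over the time points of a group. The open points of H2-K1 lie between 5.34 and 6.65, and most filled points above them, while the 5 groups overlap in every panel.

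Among the non-classical heavy chains, 16 of 27 were tested. H2-T23 encodes Qa-1, a ligand of receptors on natural killer cells, and had means of 6.19 ± 1.17 in LFC, 6.10 ± 0.77 in HFC, 6.45 ± 0.33 in HF5, 5.90 ± 0.93 in HF20 and 6.35 ± 0.36 in HF75. H2-Q7, which encodes a Qa-2 chain, had means from 5.92 in HF20 to 6.37 in HF5. H2-M3, which presents formylated peptides, had means of 0.98 ± 1.12 in LFC, 1.21 ± 0.58 in HFC, 1.56 ± 0.26 in HF5, 0.66 ± 0.89 in HF20 and 2.14 ± 0.58 in HF75. The heavy chains are close relatives and some of their probes share sequence. The longest shared stretch among tested genes was 35 bases of the 60-base probes of H2-Q10 and H2-Q5, followed by 28 bases for H2-Q7 and H2-T23 and 24 bases for H2-D1 and H2-Q2. The kept probes of H2-Q1, H2-Q10 and H2-T10 also matched transcripts listed under another symbol (H2-Q2, H2-D1 and H2-T22). Values of these genes may thus hold signal of their relatives, and counts of class I genes below count each name once although such genes are not independent.

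The classical class II chains H2-Aa and H2-Ab1, which form the I-A molecule, were well above background on all 38 arrays. H2-Aa ranged from -0.99 through a median of -0.02 to 1.69 in LFC, from -0.45 through 0.39 to 1.86 in HFC, from -0.74 through -0.20 to 0.49 in HF5, from -0.03 through 1.1 to 3.14 in HF20, and from -1.65 through -0.66 to 1.40 in HF75. HF20 lay highest and held the highest single array, at Week 6, yet its range overlapped that of every other group. H2-Ab1 had means of 3.25 ± 0.74 in LFC, 3.47 ± 0.70 in HFC, 3.21 ± 0.35 in HF5, 4.03 ± 1.29 in HF20 and 3.08 ± 1.09 in HF75. Its highest HF20 array was again Week 6, at 6.08, and its highest HF75 array was Week 3, at 5.02, the array whose brown adipocyte markers were low.

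H2-Eb1 and H2-Ea, the chains of the I-E molecule, were near background on most arrays. C57BL/6 mice carry the b haplotype, in which a deletion at the H2-Ea promoter is known to stop its transcription. H2-Eb1 was well above background on 13 arrays and ranged from -7.17 through -5.81 to -4.44 in LFC and from -6.08 through -4.69 to 0.64 in HFC. The highest value was that of HFC at Week 12. H2-Ea was well above background on 6 arrays, at -3.24 in LFC Day 14, -3.24 in LFC Week 0, -3.25 in LFC Week 6, -3.25 in LFC Week 15, -3.27 in HFC Week 0 and -2.66 in HF75 Week 3. The first 5 of these values lay close together, and the other 32 arrays, which ranged down to -8.84, gave only a bound.

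The genes of class II loading differed in how often they were detected. Cd74, the invariant chain, had means of 5.18 ± 0.77 in LFC, 5.51 ± 0.64 in HFC, 5.54 ± 0.36 in HF5, 5.64 ± 0.74 in HF20 and 5.45 ± 0.61 in HF75, and was well above background on all 38 arrays. H2-DMa, a chain of the peptide exchange factor, had means of -2.06 ± 0.54, -1.71 ± 0.76, -2.62 ± 0.53, -1.78 ± 1.65 and -2.95 ± 0.97 in the same order. It was well above background on 34 arrays. Ciita, the class II transactivator, was well above background on 32 arrays and ranged from -6.76 in HF75 Week 15 to 0.05 in HF20 Week 6. H2-Oa and H2-Ob, the chains of the H2-DM inhibitor, were well above background on 23 and 21 arrays.

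**Figure D2:**
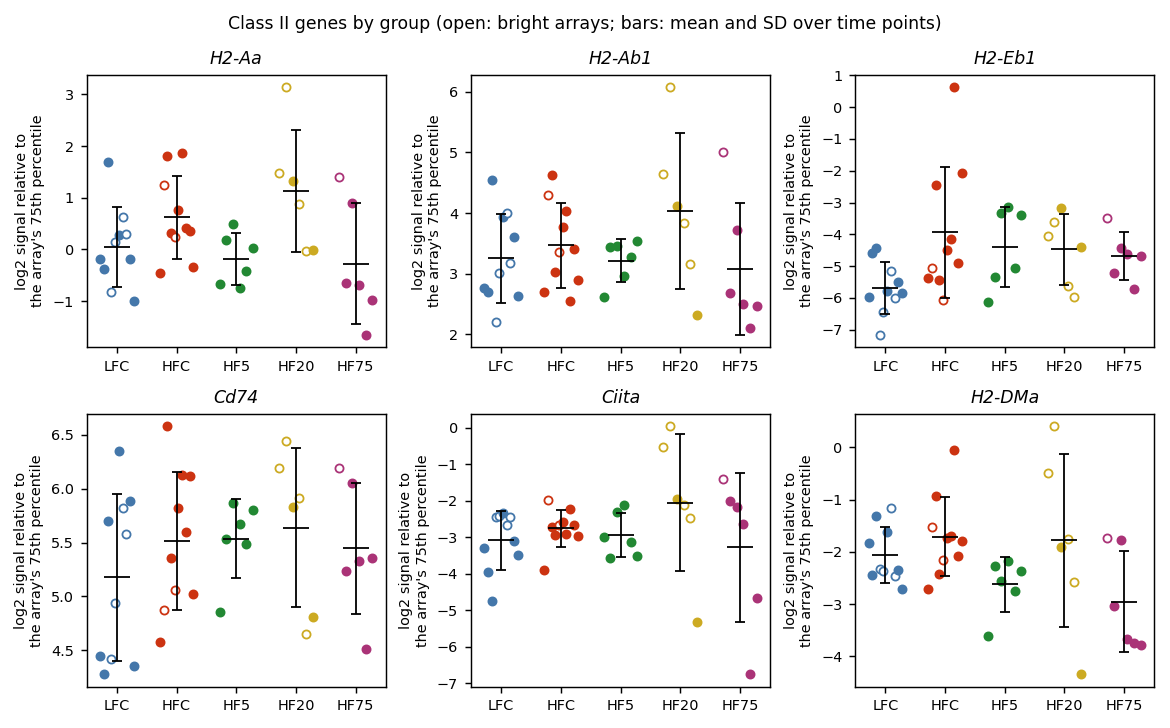
Each panel plots a class II gene as log2 signal relative to the array's 75th percentile, with 1 point per array (open points are bright arrays) and bars for the mean and SD over the time points of a group. H2-Aa, H2-Ab1, Ciita and H2-DMa all have their highest HF20 point at Week 6, and the H2-Eb1 point at 0.64 is HFC Week 12.

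Class I and class II differed in how they followed the brightness of the arrays. The kept probes of all 26 tested class I genes were lower on bright than on dim arrays, with a median difference of -1.01 on the log2 scale. This count rests on 1 probe per name. The kept H2-Q10 probe also matches H2-D1, and probes of H2-Q10 alone correlated with it at r = 0.90, -0.50 and -0.61. The kept H2-Q1 probe also matches H2-Q2, and the probe of H2-Q1 alone was well above background on 1 array (r = 0.08 with the kept one). Over all genes tested the median was -0.30 and 60% were lower. Of the 11 tested class II genes 5 were lower, with a median of 0.03. The 11 include H2-Ea (-2.35), H2-Eb1 (-0.93), H2-Oa and H2-Ob, well above background on only 6, 13, 23 and 21 arrays. Among those detected on more arrays, H2-Aa (0.71), H2-Ab1 (0.69), H2-DMa (0.71), H2-DMb2 (0.655) and Ciita (1.31) were higher on bright arrays. Cd74 stood at 0.03 and H2-DMb1 was lower (-1.03). H2-K1 averaged 6.10 ± 0.36 on bright arrays and 7.81 on dim arrays, and was lower on bright arrays within LFC (-2.13), HFC (-1.06), HF20 (-1.50) and HF75 (-1.87). Its spots were saturated on 5 of the 11 bright and 4 of the 27 dim arrays, so those levels are lower bounds and the gaps are not measured sizes. The 17 class I genes never saturated were also all lower on bright arrays, with a median of -0.79. Both counts include H2-M9, H2-M10.2, H2-M2 and Nlrc5, well above background on only 14, 25, 29 and 24 arrays. On the same scale the lowest signal well above background ran from -6.95 to -5.95 on bright arrays. On dim arrays it ran from -5.66 to -1.71, so gaps of genes near background are not measured differences. H2-T10 averaged 5.24 against 5.35, and its gap was negative within LFC (-0.71) and positive within HFC (0.38) and HF20 (0.20). The mean of 4 endothelial markers moved the same way, at 1.48 on bright and 4.14 on dim arrays, and that of 8 brown adipocyte markers lay at 2.36 and 1.91. The part of endothelial cells in the class I values was not tested, and in whole tissue fewer cells of a type and less RNA per cell cannot be told apart.

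**Figure D3:**
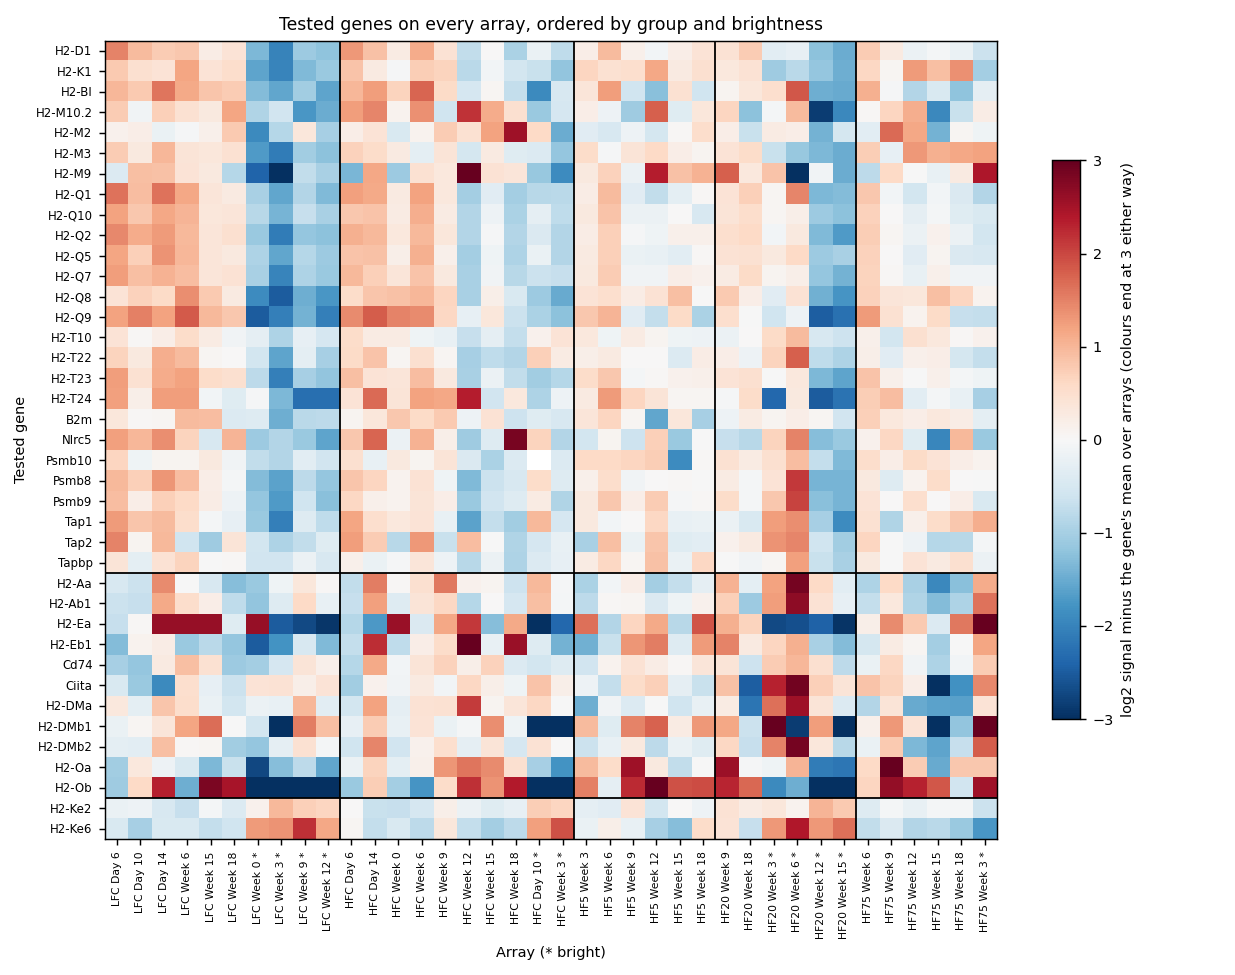
Colours give log2 signal minus the gene's own mean over the arrays for the 39 tested genes (rows, with lines between class I, class II and the prefix-only genes) on the 38 arrays (columns, ordered by group and then brightness, bright arrays starred, colours ending at 3 either way, a missing Psmb10 value blank). Most class I genes are below their mean on the 4 starred LFC arrays and on HF20 Week 12 and 15, but several loading genes are above it on HF20 Week 6, and among class II genes H2-Ea and H2-Ob are low on many starred arrays.

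The first comparison asked how the high fat, high sucrose diet differed from the low fat diet, with each time point as a pair. None of the 39 genes passed the test over the 10 time points (limma, Benjamini-Hochberg adjusted p under 0.05 over all genes tested), and 0% of all genes did. At an unadjusted p under 0.05 there were 4 of the 39, against 6.82% of all genes. The 4 were H2-Eb1, H2-Oa, H2-M2 and H2-Aa, all higher in HFC. Class II genes were higher in HFC in 9 of 11 cases, with a median difference of 0.34, and class I genes in 21 of 26, with a median of 0.10. The 11 include H2-Ea, H2-Eb1, H2-Oa and H2-Ob. These were well above background on only 4, 4, 5 and 4 LFC arrays and on 1, 4, 8 and 5 HFC arrays. The class II count and median therefore rest partly on values near background. Over all genes tested 54.8% were higher and the median was 0.05.

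H2-Aa was higher in HFC at 9 of 10 time points, by 0.57 ± 0.21 (limma SE, adjusted p = 0.652). H2-Eb1 was well above background on only 4 of 10 arrays of each diet, and on both arrays of a pair at Day 10, Day 14 and Week 12 alone. Its fitted difference of 1.75 ± 0.59 (adjusted p = 0.652), or 1.31 with values near background set to a floor, was fitted mostly on values near background, and its direction was not counted over time points. H2-Oa was higher by 1.21 ± 0.42 but was well above background on only 5 LFC and 8 HFC arrays. Both arrays of a pair were well above background at Day 10, Day 14, Week 3 and Week 12 alone. Among these pairs HFC was higher at Day 14 and Week 12 and lower at Day 10 and Week 3. The direction of H2-Oa was therefore not counted over time points. Cd74 was higher by 0.34 ± 0.18, at 9 of the 10 time points. H2-DMb1 lay at -1.77 ± 1.93 in HFC and -0.97 ± 1.51 in LFC. Markers of some other cell types were also higher in HFC. Median differences were 1.14 for 6 of 6 T cell markers that were higher in HFC, 0.83 for 4 of 4 B cell markers, 0.62 for 6 of 6 dendritic cell markers, and -0.06 for 8 macrophage markers of which 4 were higher. The median for endothelial markers was 0.49, with 4 of 4 higher. None of these markers passed the test, and their part in the class II values was not tested. T cell, B cell and dendritic cell markers averaged -3.31, -4.40 and -3.72 on bright arrays and -2.62, -2.88 and -2.64 on dim arrays. Macrophage markers averaged -0.22 on bright and -0.75 on dim arrays. LFC held 4 bright arrays and HFC 2, and the part of brightness in these marker differences was not tested.

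**Figure D4:**
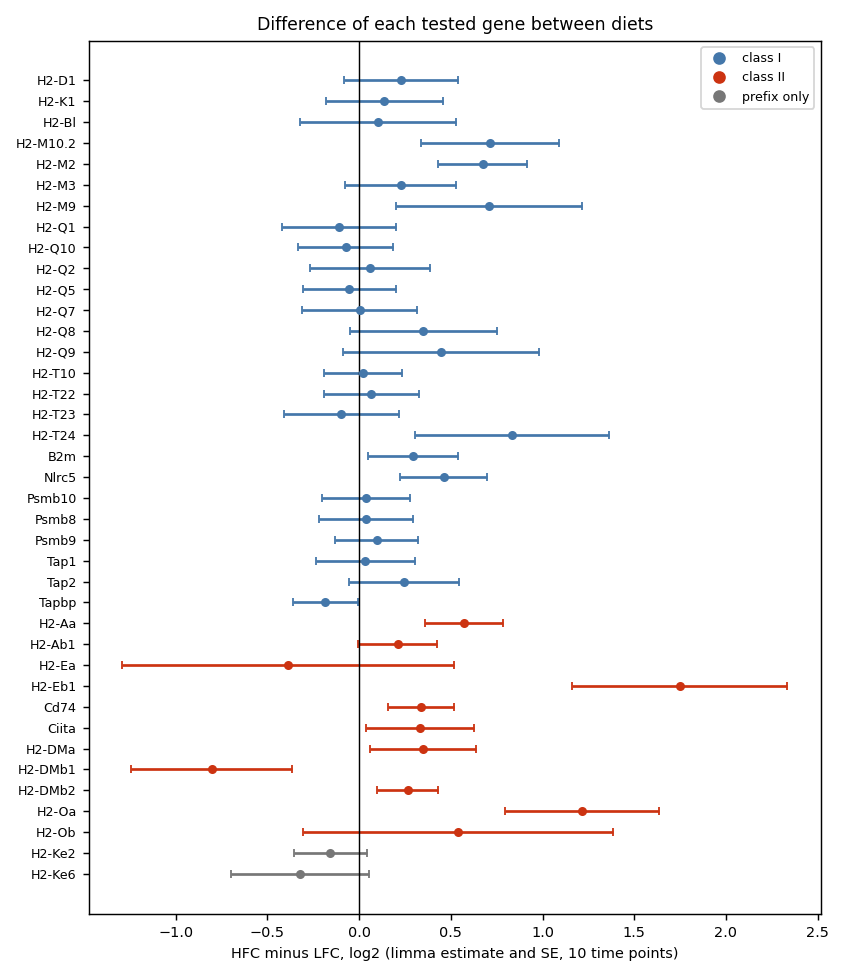
Points give the HFC minus LFC difference on the log2 scale for each of the 39 tested genes and bars its limma SE over 10 time points, coloured by class. Most class II points lie right of 0, H2-Eb1 farthest at 1.75 though mostly near background, and no gene passed the test.

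The class I difference between the diets changed sign among the time points. Its median over the 26 genes was 1.26 at Week 0 and 1.16 at Week 9, where only the LFC array was bright, 0.34 at Week 12, again with only the LFC array bright, and -1.0 at Day 10, where only the HFC array was bright. It was 0.96 at Week 3, where both were bright, and -0.86 at Week 18, where both were dim. The SD over the 10 time points was 0.82 for the class I median and 0.31 for the class II median. At weeks 3 to 18 alone, fitted with all 5 groups, the medians were 0.20 for class I, 0.52 for class II and 0.06 for all genes. The class II median again includes H2-Ea, H2-Eb1, H2-Oa and H2-Ob, near background on many arrays. None of the 39 genes passed there, against 0.00925% of all genes, and 3 were under an unadjusted p of 0.05, against 13.9%. These were H2-Eb1 (2.28 ± 0.72, or 1.78 with the floor, adjusted p = 0.352, detected on both arrays of a pair at Week 12 alone), H2-T24 (1.56 ± 0.53) and H2-Oa (1.56 ± 0.59, or 1.37 with the floor).

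The next comparisons asked how each dose of KAL-1 differed from the same diet without it, at weeks 3 to 18. For HF5 against HFC 0 of the 39 genes passed, as did 0% of all genes, and 1 was under an unadjusted p of 0.05, against 5.52%. This was Tapbp, at 4.94 ± 0.41 in HF5 and 4.24 ± 0.47 in HFC, a difference of 0.70 ± 0.27 (adjusted p = 0.814). H2-DMa lay lower in HF5 at 6 of 6 time points, by a difference of -1.04 ± 0.52 with the same adjusted p. The HF5 array of Week 18 was not well above background for H2-DMa, so the direction at Week 18 is not settled. For HF20 against HFC 0 passed, as did 0% of all genes, and 4 were under an unadjusted p of 0.05, against 32.8%. The smallest p was that of H2-T24, at -3.54 ± 1.45 in HF20 and -1.78 ± 1.07 in HFC (adjusted p = 0.121). With array weights 3 genes passed, and without Week 3 there was 1. These 2 counts are not set beside the share of all genes under the same fits, so they are no result about these genes alone. For HF75 against HFC 0 passed, as did 0% of all genes, and 3 were under an unadjusted p of 0.05, against 9.26%. They were H2-M3 (1.15 ± 0.43), H2-DMa (-1.37 ± 0.52) and Tap1 (0.98 ± 0.46), at adjusted p = 0.530 for H2-M3. The HF75 arrays of Week 12 and Week 18 were not well above background for H2-DMa. The size of that difference thus rests partly on values near background.

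The same arrays were set against the low fat diet, so these comparisons share the dose arrays with those above. For HF5 against LFC 0 of the 39 passed, against 0.00925% of all genes, and 7 were under an unadjusted p of 0.05, against 13%. For HF20 against LFC 0 passed, as did 0% of all genes, and 2 were under it, against 5.01%. For HF75 against LFC 0 passed, against 0.0277%, and 5 were under it, against 18.7%. H2-Aa was higher in HF20 than in LFC at 6 of 6 time points, by 1.1 ± 0.40 (adjusted p = 0.835). Of 8 macrophage markers 8 were higher in HF20 than in LFC (median 0.27) and 7 than in HFC (0.61), and 0 passed in either comparison or for differences among the doses. Their mean level ranged from -1.20 to 0.41 in HF20, from -1.35 to 0.61 in LFC and from -1.77 to -0.30 in HF5, and their part in the H2-Aa values was not tested. H2-M3 was higher in HF75 at 6 of 6 time points, by 1.40 ± 0.43 (adjusted p = 0.217). The class I medians were 0.49 in HF5, 0.17 in HF20 and 0.46 in HF75, against 0.12, -0.08 and 0.14 for all genes. LFC and HF20 held 3 and 4 bright arrays at these time points, and HF5 and HF75 held 0 and 1, so the dose and the brightness cannot be told apart for class I.

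Among the planned comparisons of groups and days, differences among the 3 doses alone gave calls. H2-Aa and H2-Ke6 passed a moderated F test (limma, adjusted p = 0.0388 and 0.0400), 2 of 39 genes, against 13.7% of all genes. H2-M3 lay just outside, at adjusted p = 0.0526. At an unadjusted p under 0.05 there were 8, against 37.3% of all genes. H2-Aa was higher in HF20 than in HF5 by 1.32 and lower in HF75 than in HF5 by a difference of -0.09. H2-Ke6, which carries the prefix but encodes an enzyme of steroid and fatty acid metabolism, ranged from -0.29 through 0.78 to 1.53 in HF5, from 0.29 through 2.30 to 3.39 in HF20, and from -0.75 through 0.15 to 0.55 in HF75. The HF20 arrays of Week 3, 6, 12 and 15, the bright ones, lay above every array of the other doses, and those of Week 9 (1.39) and Week 18 (0.29) did not.

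Both calls depended on whether the brightness of the arrays was in the fit. H2-Ke6 averaged 2.26 on bright and 0.47 on dim arrays, and H2-Aa 0.78 and 0.08. Within groups the gap of H2-Aa was 0.02 in LFC, 0.15 in HFC, 0.71 in HF20 and 2.02 in HF75. The HF75 gap rests on 1 bright array, that of Week 3. With the brightness class in the fit neither passed (adjusted p = 0.488 for H2-Aa and 0.369 for H2-Ke6), and without the HF75 array of Week 3 neither passed (0.0635 and 0.0734). Across the alternatives that gave a value, H2-Aa passed in 9 of 20 and H2-Ke6 in 11 of 20. For H2-Aa the bright HF20 arrays stood at 1.48, 3.14, 0.88 and -0.03 (Week 3, 6, 12 and 15) and the dim ones at 1.32 and -0.01 (Week 9 and 18). Whether the dose or the brightness goes with H2-Aa cannot be told apart in this design. Of 29 other genes of the pathway 2 passed the same test, Rfxap, a subunit of the factor that binds the X box, and Irf2, a repressor of interferon-regulated genes.

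The arrays of LFC and HFC, which reach from Day 6 to Week 18, were used to ask how the genes moved with days on the diet. In the planned fit the slope of 23 of 26 class I genes was negative, with a median of -0.03 per week, while 8 of 11 class II genes had a positive slope. These 8 include H2-Ea, H2-Eb1, H2-Oa and H2-Ob, which were near background on many LFC and HFC arrays. None of the 39 passed, against 1.41% of all genes, and 4 were under an unadjusted p of 0.05, against 21%. These were H2-M2 (0.07 ± 0.03 per week), Tap1 (-0.07 ± 0.03), H2-T22 (-0.06 ± 0.02) and H2-Ob (0.18 ± 0.07). Tap1 stood at 5.08, 4.62, 4.73 and 2.67 in LFC at Day 6, Day 10, Day 14 and Week 0, and at 1.74, 4.33, 3.41, 3.03, 3.74 and 3.54 from Week 3 to Week 18. In HFC it stood at 4.99, 4.76, 4.29 and 4.10, and then at 3.28, 4.21, 3.58, 2.19, 3.08 and 2.74. On both diets the arrays of Day 6 to Day 14 were the highest, and the low LFC values of Week 0 and Week 3 were bright arrays.

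With the brightness class in the same fit, which treats the LFC and HFC arrays of a time point as independent, 10 of the 39 genes passed, 9 of them class I genes with a negative slope, against 7.87% of all genes. These calls did not hold once the shared time point was taken into account: with scan day as a random block 0 of the 39 passed, against 0.851% of all genes (Tap1, limma, adjusted p = 0.114), and with the time point as a random block 0 passed, against 1.38% (Tap1, adjusted p = 0.107). The 9 were H2-D1, H2-Q1, H2-Q2, H2-Q5, H2-Q7, H2-Q9, H2-Q10, Psmb8 and Tap1. Without the random block the slope of Tap1 was -0.08 ± 0.02 per week on the log2 scale (limma, adjusted p = 0.0378), that of Psmb8 -0.07 ± 0.02 (0.0437) and that of H2-D1 -0.06 ± 0.02 (0.0455). The H2-Q genes and H2-D1 cross-match in part, so these are not 9 separate measurements. Other probes of H2-Q1 and H2-Q10 did not all follow the kept ones, as given above. The tenth was H2-Ob, the beta chain of H2-DO, at 0.13 ± 0.04 per week (0.0462), but it was well above background on only 4 LFC and 5 HFC arrays, and it did not pass within dim arrays (0.0852) or with normexp (0.0656). H2-K1 (-0.03 ± 0.02) and B2m (-0.02 ± 0.02) did not pass. In this fit 24 of 26 class I slopes were negative, with a median of -0.05, beside a median of 0.0026 over all genes.

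Among the 14 dim arrays alone 6 of the 39 passed, against 3.84% of all genes, all 6 with a negative slope, again without a random block. They were Tap1 (-0.09 ± 0.02 per week, adjusted p = 0.0249), Psmb8 (-0.07 ± 0.02), H2-Q1, H2-Q2, H2-Q7 and H2-T22, a ligand of some gamma delta T cells. Among the 6 bright arrays, which start at Day 10, 20 of 26 class I slopes were positive and 0 genes passed. With normexp background correction and no brightness term 13 passed, all class I genes with a negative slope, against 3.38% of all genes. The fits with the brightness class, with random blocks and within each class of arrays were chosen after the values were seen. In the fit with the brightness class, time points were left out in turn. The count was 1 without Day 6, 6 without Day 10, 2 without Day 14 and 8 without Week 0. It was 9 without Week 3, 5 without Week 6 or 9, 2 without Week 12, 4 without Week 15 and 0 without Week 18. Of all genes the share that passed was 4%, 7.23%, 3.66%, 4.69%, 7.12%, 7.26%, 6.42%, 5.53%, 9.44% and 0.208%, in the same order. Whichever time point was left out, 23 or 24 of 26 class I slopes stayed negative. Age rose with days on the diet, and the time points were scanned on separate days, with Week 9 of LFC and HFC on different ones, so diet duration, age and scan day cannot be told apart.

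**Figure D5:**
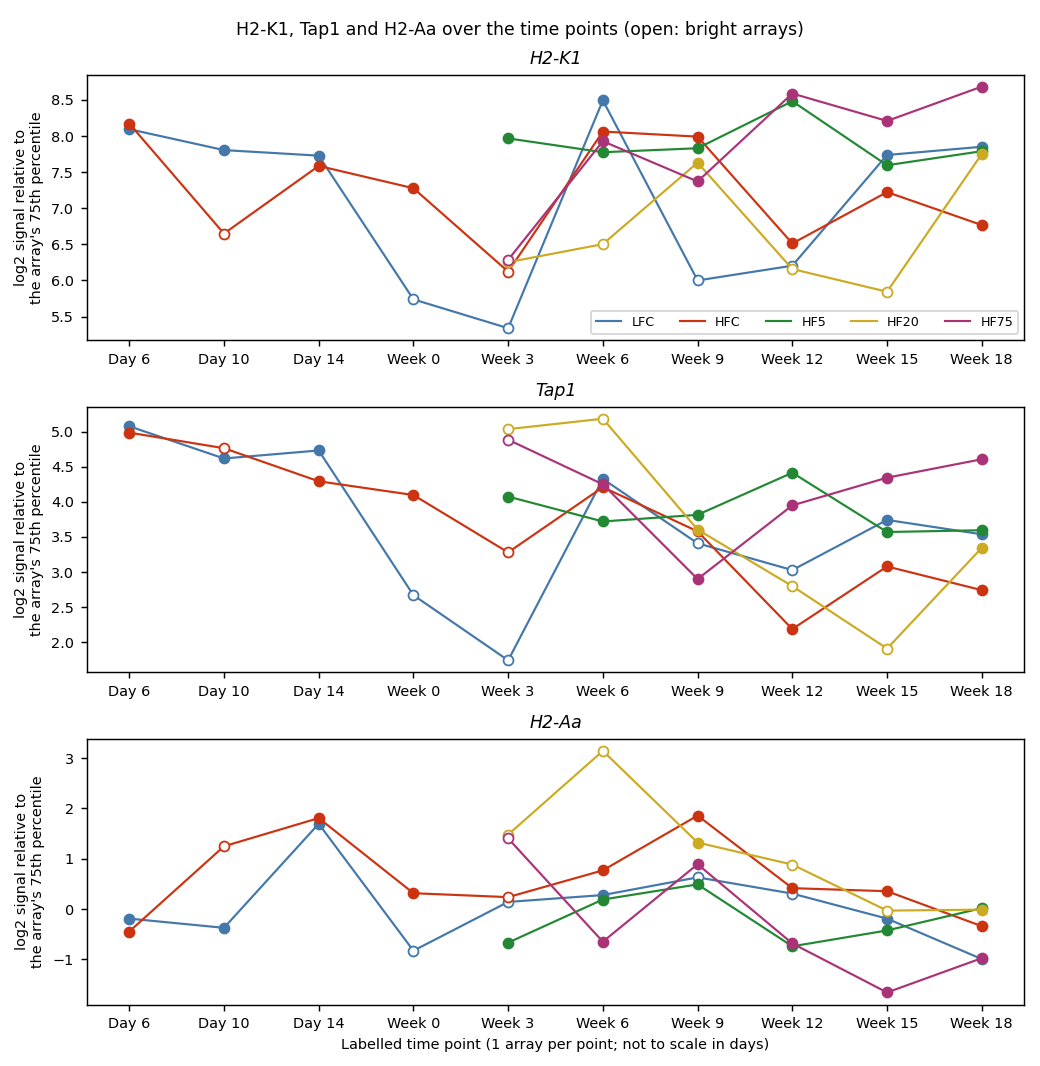
Lines join the arrays of a group for H2-K1, Tap1 and H2-Aa, as log2 signal relative to the array's 75th percentile, over the labelled time points (1 array per point, open points are bright arrays, and the axis is not to scale in days). Tap1 starts near 5 on both diets and most later points are lower, the open points of H2-K1 are mostly below the filled ones, and the highest H2-Aa point is HF20 at Week 6.

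The difference between the diets was also tested for a change over days. None of the 39 genes passed for the product of diet and day, as for 0% of all genes, and 0 were under an unadjusted p of 0.05, against 15.2% of all genes. The smallest p was that of Tap1, whose HFC minus LFC difference moved by -0.07 ± 0.04 per week (adjusted p = 0.401). A test of this size recovers few changes. On simulated data it found 0% of added slope differences that came to 2 on the log2 scale over the course and 25.5% of those that came to 4.

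Across the 38 arrays, H2-Aa varied with genes of antigen-presenting cells (10 pairs tested, 100000 permutations, Benjamini-Hochberg adjusted). With Csf1r, the macrophage growth factor receptor, Pearson's r was 0.79 and Spearman's rho 0.73 (adjusted permutation p = 3.33e-05 and 5e-05, from the smallest p these permutations can give). The r was 0.79 within bright and 0.75 within dim arrays, and 0.73 without the 2 arrays farthest from the median of H2-Aa. With Cd74 r was 0.69 and rho 0.73, with r of 0.80 within bright and 0.69 within dim arrays, and 0.64 without the 2 farthest arrays. With Itgax, a dendritic cell integrin, r was 0.69 and rho 0.62, with r of 0.80, 0.60 and 0.58 in the same 3 subsets. For these 3 genes every subset passed. With Ciita r was 0.56 and rho 0.48 over all arrays, but r was 0.36 within dim arrays and 0.33 without the 2 farthest arrays, HF20 Week 6 and HF75 Week 15, and neither r passed (adjusted permutation p = 0.0991 and 0.0704), while rho without those arrays was 0.39 (0.0289).

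H2-K1 was less regular. With B2m, r was 0.48 and rho 0.47 over all arrays (adjusted permutation p = 0.0033 and 0.00501), 0.71 within bright arrays and 0.06 within dim arrays, so the relation did not hold within the dim arrays. Of the 11 bright arrays H2-K1 was saturated on 5 and B2m on 3, so values of r there rest partly on clipped signal. With Ptprc, the pan-leukocyte marker Cd45, r was -0.02 over all arrays, 0.70 within bright and -0.27 within dim arrays. With Nlrc5 r was 0.35 over all arrays and did not pass within either class of arrays. As a description, the median r between 2 class I genes was 0.58 over 325 pairs, 0.76 on bright and 0.37 on dim arrays. Between 2 class II genes it was 0.34, 0.76 and 0.37, and between the classes 0.16, 0.67 and -0.05. Points of these correlations share brightness and tissue composition.

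The genes outside the set whose pattern lay closest to the mean of H2-Aa, H2-Ab1 and H2-Eb1 were Irf5 (r = 0.79), LOC624071 (0.77), Ctsw (0.75), Cd3g (0.75) and LOC639316 (0.74), among 20585 candidates over 38 arrays. For the mean of B2m, H2-K1 and H2-D1 they were Zfp821 (0.92), Kctd10 (0.92), 0610037M15Rik (0.91), Gimap4 (0.91) and Arhgap27 (0.91). The r of Zfp821 was 0.79 on bright and 0.73 on dim arrays, and that of Irf5 was 0.89 and 0.76. These are descriptions of likeness over arrays and say nothing of shared control.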

How the data were processed

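Total RNA of brown adipose tissue was labelled with Cy3 by linear amplification and hybridised to 1-colour Agilent mouse arrays, 38 in all, on 32 slides and 12 scan days. The deposited scanner files hold spot intensity in linear units. The authors' processed signal in them is background-corrected but not scaled between arrays; the file headers name Feature Extraction 10.5.1.1 and the submitters' processing notes 9.1. The authors also deposited a table of log2 ratios, each against LFC at its time point; its 4 columns of Week 15 did not match the scanner files by probe name (r from -0.0046 to 0.0022), so it served only as an alternative, without Week 15. No sample column was left unmapped (0).

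Groups came from the sample labels. The log2 processed signal had each array's 75th percentile subtracted, control spots and outlier flags were left out, and each gene name was represented by its probe of highest mean. Some Week 9 files have damaged names, so names came from the first array. Of the 51 kept probes, 44 carried an accession of the same symbol in RefSeq (GRCm38.p6). The few arrays limit precision, as does dim signal: 36.6% to 78.8% of probes were well above background. Because nothing says that arrays came from separate animals or pools, p-values measure only the spread between these arrays.

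Linear models came from limma 3.58.1 under R 4.3.3 (moderated by eBayes), taking the time point as block, since time points are the labels' own pairing; the 5 groups share 1 fit at weeks 3 to 18. The slope over days (14 days plus 7 per labelled week) had no block. Correlations used two-sided permutation tests. One of the correlations tested is not reported here. The genes and lists were chosen with earlier results of these data known. Named were the 4 genes with the highest mean in each set, the 3 with the smallest p in each comparison and any that passed. Also named were tested genes that were well above background on no array of some group. Alternatives were quantile normalization, normexp with an offset of 50, the deposited table, filters on dim probes, all probes, slide, scan day (as block or, for slopes, random block), array weights, brightness, no block, all 38 arrays in 1 fit, the methods' t-test, and leaving out time points or arrays. A check on simulated data altered 200 genes: differences of 2 and 4 on the log2 scale were recovered in 63.5% and 96.0% of genes for HFC against LFC over all time points, in 61.0% and 97.5% for differences among the doses, and slopes of that size over the course in 48.5% and 85.5%.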

Additional observations from a re-analysis of the deposited data

Results flagged for a closer look

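Of 150 gene and group pairs examined with Dixon's gap test, 5 held an array far from the others, where chance alone would give about 7.5. H2-M3 stood at 1.03 on the HF75 array of Week 9, with the next at 1.99. H2-T23 stood at 7.05 on the HF75 array of Week 6, above the next at 6.35. Psmb10 stood at 3.06 on the HF5 array of Week 15, with the next at 4.98. H2-DMb1 stood at -4.69 on the LFC array of Week 3, with the next at -1.65. H2-DMb2 stood at -0.68 on the HFC array of Day 14, above the next at -1.64.

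The 3 doses differed in H2-Aa (limma F test, adjusted p = 0.0388) and in H2-Ke6 (0.0400), with the levels and the dependence on brightness given above.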

How the results depend on the processing

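Among alternative values of the counts of genes called, the class medians and the correlations, 279 kept the count within 1.5 times or the median within its SD, and 36 did not. For single named genes 700 values kept direction and side of the threshold, 28 lost the call, 16 gained one and 6 changed sign. The class medians of HFC against LFC ran from -0.15 to 0.26 for class I and from 0.18 to 0.43 for class II. The cause of the changes below was not tested. Most counts below stand without the share of all genes under the same fit, so they are no result about these genes alone.

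For differences among the doses the count of 2 became 0 with normexp, the deposited table, no filter, the brightness class or without the HF75 Week 3 array, 5 with genes well above background on every array or with slide as a random block, 8 with array weights, and 1 with no replicate block, the unpaired fit; leaving out a time point gave 0 (Week 3, 6, 12 or 15) to 5 (Week 18; 4 without Week 9). The fit with no replicate block changed no other count by over 1.5 times. For HF20 against HFC it became 3 with array weights and 0 to 1 when a time point was left out. For the slope over days it became 13 with normexp, 3 with array weights, 10 with the brightness class and 1 with all 38 arrays in 1 fit, and for the product of diet and day 1 with the brightness class. The slope with the brightness class gave 10, then 0 to 9 when a time point was left out, 0 with scan day or time point as a random block, 31 with normexp (where 59.3% of all genes passed), 6 within dim and 0 within bright arrays; 7 remained without the HFC Day 10 array. Of 10 correlations 8 passed, and 4 within dim arrays.

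Signs turned for H2-Ke6 in HF20 against HFC (-0.15) and H2-Ob in HF5 against LFC (-0.079) at time points of 1 brightness class, for H2-Eb1 in HF20 against LFC with normexp (-0.17), and for the correlation of H2-K1 with Ptprc, at 0.70 within bright arrays, 0.0877 with quantile normalization and 0.0316 without the HF75 Week 3 array. The methods' t-test called 2 of the 39 genes in HFC against LFC unadjusted, against 882 of all 21624 genes tested. After Benjamini-Hochberg adjustment it called 0 of the 39 and 0 of all genes. The slope over days could not be fitted with scan day as block, and the deposited table was not run for the slope or the product of diet and day. Genes near background, such as H2-Eb1 and H2-Oa, are limited by signal, and saturated spots of H2-K1 by the scanner's range.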

Other observations

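Repeat probes gave a view of spot noise in 1 member of the set. A Tap1 probe other than the one kept is spotted 10 times on each array. The SD over its spots on 1 array had a median of 0.091 on the log2 scale and a range of 0.0091 to 0.589, against an SD of 1.29 over the means of the 38 arrays.

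H2-Q10, a heavy chain known as a liver product, has 4 probes on the array. The kept probe correlated across arrays with the H2-D1 probe at r = 0.945, and with the other 3 H2-Q10 probes at 0.90, -0.50 and -0.61. Of 24 other probes of the 18 genes with more than 1 probe, 16 correlated with the kept one at r over 0.5.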
